A study of Mus musculus with 9 samples.

Results

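Transcripts of 10 genes that carry a calcium signal from the plasma membrane to the nucleus were followed in mouse spleen regulatory T cells (Tregs). The genes encode the calcium channel subunits Orai1 and Orai2, the calcium sensors Stim1 and Stim2, the calcineurin catalytic subunits Ppp3ca and Ppp3cb, the calcineurin regulator Rcan1, and the transcription factors Nfatc1, Nfatc2 and Nfatc3. They were chosen by name, with earlier results of these data known. All 10 were found among the 23393 gene rows used and passed the filter on low counts. The samples fall into 3 groups of 3: wild-type Tregs with little of the interleukin-33 receptor ST2 (labelled WT-ST2 Low, here ST2-low), wild-type Tregs rich in it (WT-ST2 High, here ST2-high), and Tregs with the genotype label ST2KO. No treatment, age, strain, knockout allele or sort gate is given in the sources used here. Whether replicates are separate animals is not stated either, so that p-values measure only how these samples differ, and that spread may be technical.

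In T cells, engagement of the antigen receptor empties calcium stores in the endoplasmic reticulum (ER). STIM proteins in the ER membrane sense the loss and open ORAI channels in the plasma membrane, and the calcium that enters activates the phosphatase calcineurin through calmodulin. Calcineurin removes phosphates from NFAT proteins, which then move to the nucleus and bind DNA together with partners such as AP-1 or, in Tregs, Foxp3.

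Total counts per library lay between 11659659 (ST2KO replicate 3) and 43406680 (ST2KO replicate 1). Levels are given as CPM, counts divided by the library size after TMM scaling, as mean ± SD of 3 samples unless single samples are listed. Il1rl1, which encodes ST2, was at 2.62 ± 0.84 (ST2-low), 494.7 ± 66.0 (ST2-high) and 67.6 ± 14.0 CPM (ST2KO). Each ST2KO library was thus above each ST2-low library. Counts per gene cannot show whether a deleted stretch is missing, so the genotype is taken from the label throughout. Foxp3, the defining Treg factor, had between 410.2 and 621.9 CPM in every library. ST2-high replicate 3 lay furthest from its own group (chi-square per gene 17.4 and 21.2 against replicates 1 and 2, at most 8.64 in other pairs of a group). This mean includes the ribosomal RNA row Rn45s, 16.7% of counts in ST2-high replicate 3 and 12.98% and 12.1% in replicates 1 and 2. The part of that row in the distance was not separated. For the genes listed at the start, from Orai1 to Nfatc3, calls that change without ST2-high replicate 3 are given with the gene. Calls of the other pathway genes and of the cell type markers were not recomputed without that replicate. In bulk RNA, fewer cells of a type and less transcript per cell cannot be told apart.

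Most myeloid and dendritic, B cell, plasma cell and neutrophil markers tested were lower in ST2KO (sums are over all listed markers with a row). Beside the counts that follow, 29.3% of all tested genes were lower and 33.0% higher in ST2KO than ST2-low. Against ST2-high, 32.6% were lower and 31.9% higher in ST2KO. Between the wild-type groups, 10.8% were lower and 15.3% higher in ST2-high. Of 11 tested myeloid and dendritic markers, 9 were lower in ST2KO than ST2-low and 0 higher, and the 13 with a row summed to 148.3 to 188.7 CPM in ST2-low, 140.8 to 141.8 CPM in ST2-high and 43.2 to 57.4 CPM in ST2KO. Of 10 B cell markers, 6 were lower than in ST2-low and 0 higher, with sums of 116.8 to 172.5, 133.3 to 163 and 102.5 to 129.5 CPM. All 4 tested plasma cell markers and 3 of 4 tested neutrophil markers were lower too, with sums of 85.1 to 131.8 and 5.88 to 24 CPM in ST2-low and 60.9 to 70.6 and 2.37 to 3.45 CPM in ST2KO. NK cell markers (1 of 6 lower) and erythroid and platelet markers (1 of 5 lower) summed to 34.8 to 35.5 and 18.6 to 28.0 CPM in ST2-low and 26.5 to 32.0 and 18.1 to 24.0 CPM in ST2KO, and the globin genes Hba-a1 and Hbb-b1 were at 0. Cd8a and Cd8b1 together were at 5.74 to 7.62 CPM in all libraries, with no call. Against ST2-high, 10 of the 11 myeloid and dendritic and 7 of the 10 B cell markers were lower in ST2KO. The wild-type groups differed too: in ST2-high against ST2-low the myeloid markers Csf1r, Emr1 and Vcam1 fell (1.37-, 1.43- and 1.49-fold), Itgam rose 1.96-fold and the B cell marker Cd79b rose 1.29-fold. The part of these cells in the wild-type and ST2KO differences given below, the falls of Orai1, Plcg2 and Slc8a1 among them, was not tested. Of the 6 Treg markers, 2 were higher in ST2KO than ST2-low (Il2ra and Ikzf2), 1 was lower (Ctla4, 2.54-fold) and Foxp3, Cd4 and Cd3e were not called. Against ST2-high, 1 was higher in ST2KO (Il2ra) and 3 were lower (Foxp3 by 1.32-fold, Ctla4 and Ikzf2). In ST2-high against ST2-low, 3 were higher (Foxp3 by 1.23-fold, Il2ra and Ikzf2) and 0 lower. The sums of the 6 Treg markers were 4621 to 4762 CPM in ST2-low, 5248 to 5538 CPM in ST2-high and 3675 to 3802 CPM in ST2KO.

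In ST2-high against ST2-low, 5 of the 10 genes rose (Orai1, Stim1, Ppp3ca, Nfatc2 and Nfatc3), Stim2 fell, and 4 did not pass the threshold, an adjusted p under 0.05 in the edgeR quasi-likelihood test, adjusted over all genes by Benjamini and Hochberg. Of 12219 genes tested in that comparison, 26.1% were called, 15.3% higher and 10.8% lower. The groups did not overlap for 7 of the 10 genes, beside 38.1% of all genes. Comparing ST2KO with ST2-low, 5 rose (Orai2, Stim2, Rcan1, Ppp3cb and Nfatc2), 4 fell (Orai1, Stim1, Ppp3ca and Nfatc3) and Nfatc1 did not pass. There 62.3% of all genes were called, 33.0% higher and 29.3% lower, and the groups did not overlap for 9 of the 10 genes, beside 67.2% of all. Set against ST2-high, 4 rose in ST2KO (Orai2, Stim2, Rcan1 and Ppp3cb), 4 fell (Orai1, Stim1, Ppp3ca and Nfatc3), and Nfatc1 and Nfatc2 did not pass. The background there was 64.5%, 31.9% higher and 32.6% lower, and 8 of the 10 genes had groups without overlap, beside 66.8% of all. Any 2 of these comparisons share a group, so their calls are not independent. The shares over all genes include genes at lower levels than most of the 10, and the part of expression level was not tested.

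Most of these differences were small. The median size of the log2 fold change over the 10 genes was 0.20 between the wild-type groups, 0.29 for ST2KO against ST2-low and 0.40 for ST2KO against ST2-high. Over all tested genes it was 0.17, 0.39 and 0.40. A change of 2-fold or more was reached by Orai1 in both ST2KO comparisons and by none of the other 9 genes in any comparison. Among all tested genes, 13.5% were called at that size when ST2KO was set against ST2-low and 15.7% against ST2-high (3.53% between the wild-type groups).

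**Figure D1:**
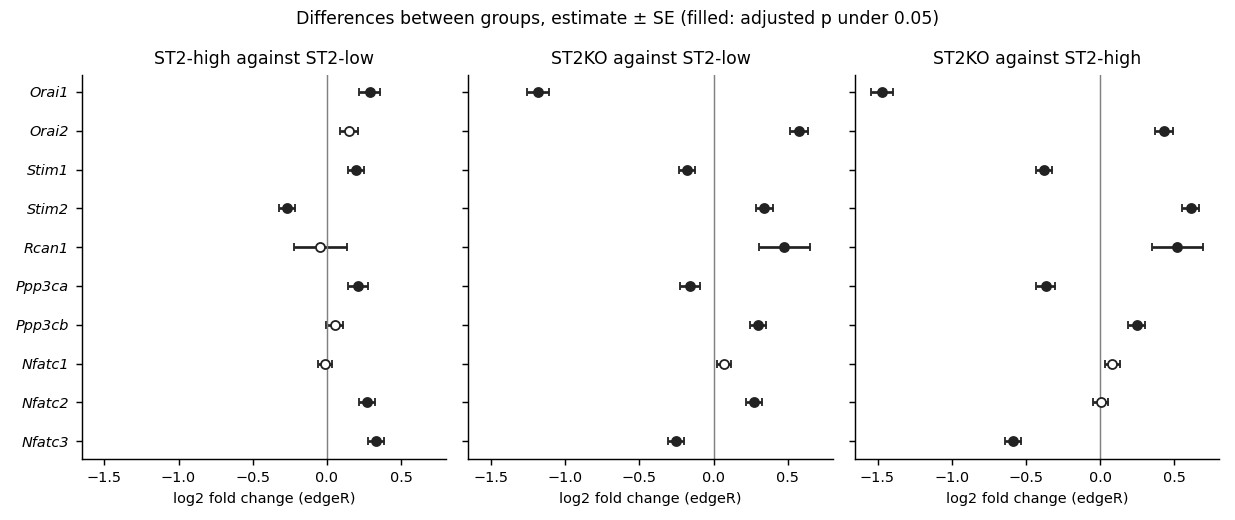
Log2 fold change from edgeR (x axis) of each of the 10 genes (y axis) in the 3 comparisons, with bars of 1 SE; filled points passed the adjusted threshold. Orai1 lies furthest from 0 in both ST2KO panels, at -1.18 and -1.47, while Orai2 and Stim2 lie on the other side of 0.

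Orai1, the pore subunit that carries most store-operated calcium current in T cells, showed the widest difference. ST2-low replicates 1 to 3 held 97.7, 102.5 and 98.1 CPM, ST2-high replicates 114.8, 122.1 and 127.7 CPM, and ST2KO replicates 39.9, 41.6 and 52.0 CPM. The 3 groups did not overlap, with ST2-high on top and ST2KO at the bottom. The fall in ST2KO was 2.27-fold against ST2-low (log2 fold change -1.18 ± 0.07 SE, adjusted p = 4.45e-14) and 2.77-fold against ST2-high (-1.47 ± 0.07, adjusted p = 2.61e-16). Both calls also held when a change above 1.5-fold was required, which left no other of the 10 genes called in any comparison. The rise in ST2-high over ST2-low was 1.22-fold (adjusted p = 0.00207).

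Orai2, a second channel subunit that joins mixed channels with Orai1, was highest in ST2KO. It stood at 55.7, 53.9 and 55.6 CPM (ST2-low), 63.5, 60.5 and 58.7 CPM (ST2-high) and 86.5, 80.6 and 78.3 CPM (ST2KO). All 3 ST2KO samples were above all 6 wild-type samples, and it was 1.49-fold higher than in ST2-low (log2 fold change 0.58 ± 0.06 SE, adjusted p = 1.79e-09) and 1.35-fold higher than in ST2-high (adjusted p = 3.72e-07). The wild-type groups did not overlap but the difference of 1.11-fold did not pass (adjusted p = 0.0797), and passed without ST2-high replicate 3 (adjusted p = 0.0455).

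Because Orai1 and Orai2 went in opposite directions in ST2KO, the 250 bases upstream of their annotated starts are shown (RefSeq, GRCm38.p6; this window was in the table for 8 of the 10 genes). They lie at chr5:123014824-123015073 on the plus strand for Orai1 and at chr5:136170657-136170906 on the minus strand for Orai2. Capitals mark matches on either strand to the NFAT core GGAAA, the AP-1 motif TGANTCA, the cyclic AMP response element TGACGTCA and the E-box CACGTG.
Orai1: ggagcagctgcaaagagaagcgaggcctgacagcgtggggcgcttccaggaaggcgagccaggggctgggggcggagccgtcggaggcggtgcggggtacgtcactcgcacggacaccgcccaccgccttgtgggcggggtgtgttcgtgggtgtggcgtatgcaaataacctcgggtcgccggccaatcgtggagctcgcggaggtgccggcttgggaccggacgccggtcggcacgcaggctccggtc
Orai2: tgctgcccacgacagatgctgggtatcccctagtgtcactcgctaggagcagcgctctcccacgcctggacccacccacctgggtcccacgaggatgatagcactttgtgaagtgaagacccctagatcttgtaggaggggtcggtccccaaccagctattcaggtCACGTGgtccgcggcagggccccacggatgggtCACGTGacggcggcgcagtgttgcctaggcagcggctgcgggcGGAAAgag
The Orai1 window holds none of the 4 motifs. The Orai2 window holds 1 NFAT core and 2 E-boxes, with no overlap between them. An NFAT core is found in 55.6% of all 32851 windows in the table, an E-box in 6.02% and 2 or more E-boxes in 0.429%. These are letter matches only.

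The third ORAI gene, Orai3, is not among the 10 and is scarce, but rose with Orai2. It was at 6.04 ± 0.86 (ST2-low), 8.19 ± 0.81 (ST2-high) and 12.3 ± 0.91 CPM (ST2KO), 2.04-fold above ST2-low (adjusted p = 2.36e-07). Set on a per-length scale (CPM per kb of exon sequence, from the GENCODE M21 models), the 3 ORAI genes together came to 55.2 ± 1.39 in ST2-low, 66.8 ± 2.63 in ST2-high and 38.6 ± 2.16 in ST2KO. Orai1 made up 78.5% ± 0.21 of that sum in ST2-low, 79.2% ± 1.22 in ST2-high and 50.03% ± 4.46 in ST2KO. The share of Orai2 was 16.4% ± 0.70, 15.03% ± 1.18 and 35.0% ± 3.5, and that of Orai3 was 5.1% ± 0.59, 5.73% ± 0.46 and 14.97% ± 1.57. The ST2KO shares lay outside the range of the wild-type samples for each of the 3 genes.

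**Figure D2:**
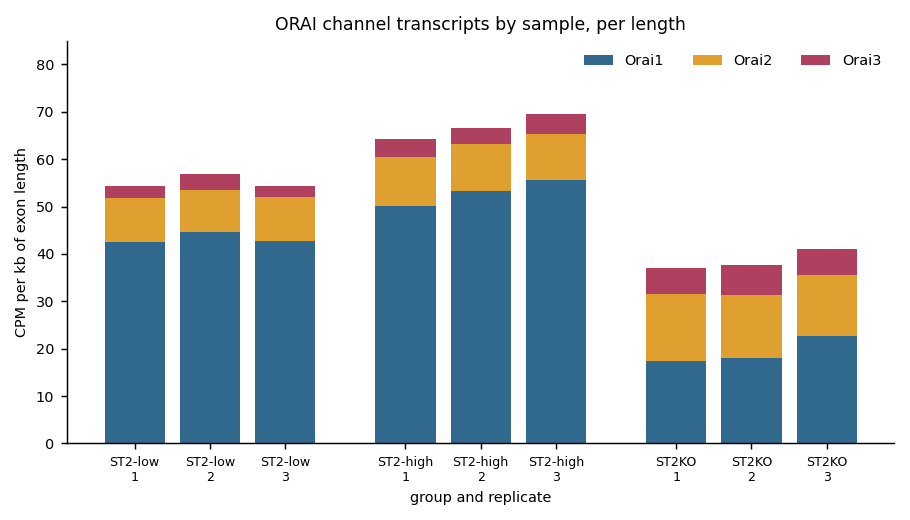
Stacked bars give Orai1, Orai2 and Orai3 in each of the 9 samples (x axis) as CPM per kb of exon length (y axis, from 0). The ST2KO bars are the shortest, and Orai1 fills between 46.8% and 55.1% of them, against 77.8% to 80.0% in ST2-high and 78.3% to 78.6% in ST2-low.

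The sensors also moved apart. Stim1, which couples store depletion to channel opening, was at 129.7, 129.8 and 135.2 CPM (ST2-low), 152.9, 141.1 and 158.9 CPM (ST2-high) and 116.5, 110.1 and 121.9 CPM (ST2KO). The groups were ordered as for Orai1, without overlap. Stim1 was 1.15-fold higher in ST2-high than ST2-low (adjusted p = 0.00674). It was 1.30-fold lower in ST2KO than ST2-high (log2 fold change -0.38 ± 0.06 SE, adjusted p = 5.56e-07) and 1.13-fold lower than in ST2-low (adjusted p = 0.00538), a call that was lost with upper-quartile scaling (adjusted p = 0.0766).

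Stim2, a sensor that responds to smaller drops in store calcium, had the reverse order. ST2-low samples held 94.0, 89.1 and 92.3 CPM, ST2-high samples 75.9, 80.7 and 72.2 CPM, and ST2KO samples 113.6, 119.4 and 116.7 CPM. No groups overlapped. Stim2 fell 1.20-fold in ST2-high against ST2-low (log2 fold change -0.27 ± 0.06 SE, adjusted p = 0.000502). It was higher in ST2KO, by 1.27-fold over ST2-low (adjusted p = 3.41e-06) and 1.53-fold over ST2-high (0.61 ± 0.06, adjusted p = 6.84e-11). Summed per length, Stim1 and Stim2 came to 30.6 ± 0.61 (ST2-low), 29.4 ± 0.10 (ST2-high) and 33.9 ± 0.57 CPM per kb (ST2KO), a narrower range than that of either share. The share of Stim1 in that sum was 41.5% ± 0.80, 49.5% ± 2.89 and 33.0% ± 1.49.

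Of the calcineurin catalytic subunits, Ppp3ca was highest in ST2-high and Ppp3cb in ST2KO. Ppp3ca, the alpha isoform, was at 63.4, 57.4 and 55.0 CPM (ST2-low), 66.0, 65.6 and 71.7 CPM (ST2-high) and 51.7, 50.3 and 55.8 CPM (ST2KO). ST2-low overlapped with ST2KO, and ST2-high was above both. Ppp3ca was 1.29-fold lower in ST2KO than ST2-high (log2 fold change -0.37 ± 0.07 SE, adjusted p = 1.87e-05). Its other differences were close to the threshold. The rise of 1.16-fold in ST2-high over ST2-low (adjusted p = 0.0189) was lost with DESeq2's test (adjusted p = 0.0554) and without ST2-low replicate 2, ST2-low replicate 3 or ST2-high replicate 3 (adjusted p = 0.0794, 0.127 and 0.0682). The fall of 1.117-fold in ST2KO against ST2-low (adjusted p = 0.0405) was lost with upper-quartile scaling (adjusted p = 0.249) and without ST2-low replicate 1, ST2KO replicate 1 or ST2KO replicate 2 (adjusted p = 0.252, 0.125 and 0.144).

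Ppp3cb, the beta isoform, was at 96.5, 89.6 and 89.3 CPM (ST2-low), 96.7, 96.7 and 91.8 CPM (ST2-high) and 115.1, 117 and 105.9 CPM (ST2KO). The wild-type groups overlapped (adjusted p = 0.561), and all ST2KO samples were above them. The rise in ST2KO was 1.23-fold over ST2-low (log2 fold change 0.30 ± 0.06 SE, adjusted p = 3.07e-05) and 1.19-fold over ST2-high (adjusted p = 0.000302). The remaining catalytic gene, Ppp3cc, rose as well, from 33.4 ± 3.07 CPM in ST2-low to 43.1 ± 0.28 CPM in ST2KO (1.29-fold, adjusted p = 0.00018). Per length, Ppp3cc and Ppp3cb each supplied more of the 3 catalytic transcripts than Ppp3ca did. Ppp3ca made up 21.4% ± 1.39 in ST2-low, 23.3% ± 1.84 in ST2-high and 16.2% ± 1.05 in ST2KO.

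Rcan1, which binds calcineurin and restrains it and is itself induced through calcineurin and NFAT from an internal start, was the scarcest of the 10 genes. The libraries held between 72 and 288 Rcan1 counts. It was at 5.08, 4.03 and 5.43 CPM (ST2-low), 4.26, 5.22 and 4.75 CPM (ST2-high) and 6.25, 7.31 and 6.87 CPM (ST2KO). Wild-type groups overlapped, and the ST2KO samples were above all of them. Rcan1 was 1.39-fold higher in ST2KO than ST2-low (log2 fold change 0.48 ± 0.17 SE, adjusted p = 0.0167) and 1.44-fold higher than in ST2-high (0.52 ± 0.17, adjusted p = 0.00904). The first call was lost without ST2-low replicate 2 (adjusted p = 0.13) or ST2KO replicate 2 (adjusted p = 0.0648), and the second without ST2-high replicate 1 (adjusted p = 0.0722).

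The 2 annotated Rcan1 starts are shown because the internal one is known to answer to NFAT, while counts per gene add the transcripts of both. The windows of 250 bases lie on the minus strand at chr16:92466170-92466419 (first start) and chr16:92400079-92400328 (internal start), with capitals as above.
Rcan1 first start: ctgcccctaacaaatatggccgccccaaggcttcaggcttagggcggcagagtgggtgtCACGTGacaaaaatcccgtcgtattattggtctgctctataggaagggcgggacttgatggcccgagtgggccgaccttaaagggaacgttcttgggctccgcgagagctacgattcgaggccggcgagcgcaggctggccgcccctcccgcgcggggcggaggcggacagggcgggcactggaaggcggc
Rcan1 internal start: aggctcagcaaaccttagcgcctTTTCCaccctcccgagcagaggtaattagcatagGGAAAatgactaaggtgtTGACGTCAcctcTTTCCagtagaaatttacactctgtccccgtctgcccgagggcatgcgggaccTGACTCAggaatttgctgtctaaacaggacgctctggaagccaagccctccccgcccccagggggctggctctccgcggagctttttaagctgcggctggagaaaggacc
The first window holds 1 E-box. The internal window holds 3 NFAT cores, 1 AP-1 motif and 1 cyclic AMP response element, with no overlap among them. Across the table, 6.39% of windows held 3 or more NFAT cores, 6.75% an AP-1 motif and 1.55% a cyclic AMP response element. The Ppp3cb window and an Nfatc2 window also held 3 NFAT cores each. Over the 11 windows of the 8 matched genes, 6 held at least 1 NFAT core, beside the 55.6% of all windows. Which start the Rcan1 counts came from was not measured.

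The NFAT genes differed in direction. Nfatc1, whose product is amplified by its own signal in activated lymphocytes, passed the threshold in none of the 3 comparisons. It stood at 305.9, 308.3 and 309.9 CPM (ST2-low), 305.7, 294.2 and 316.4 CPM (ST2-high) and 324.1, 329.4 and 316.1 CPM (ST2KO). ST2-high overlapped with both other groups, and ST2KO lay just above ST2-low. The log2 fold changes were -0.01 ± 0.05 SE for ST2-high against ST2-low (adjusted p = 0.894), 0.07 ± 0.05 for ST2KO against ST2-low (adjusted p = 0.219) and 0.08 ± 0.05 for ST2KO against ST2-high (adjusted p = 0.144). Upper-quartile scaling, which moved the median log2 fold change of all genes against ST2-low from 0.05 to 0.12 and against ST2-high from 0.02 to 0.099, turned the last 2 into rises of 1.102-fold and 1.119-fold (adjusted p = 0.013 and 0.00456).

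Nfatc2, a factor already present in resting T cells, was lowest in ST2-low. Its samples held 161.8, 165.5 and 165.7 CPM there, 202, 183.7 and 209.2 CPM in ST2-high and 199.1, 191.7 and 205.6 CPM in ST2KO. It was 1.21-fold above ST2-low both in ST2-high (log2 fold change 0.27 ± 0.05 SE, adjusted p = 0.000224) and in ST2KO (0.27 ± 0.05, adjusted p = 5.15e-05). ST2-high and ST2KO overlapped, with a log2 difference of 0.003 ± 0.05 (adjusted p = 0.969).

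Nfatc3, also expressed at rest, had the order of Orai1 and Stim1. It was at 496.8, 499.7 and 488.3 CPM (ST2-low), 673, 582.2 and 610.8 CPM (ST2-high) and 418, 426.1 and 400 CPM (ST2KO). No groups overlapped. The rise in ST2-high over ST2-low was 1.26-fold (adjusted p = 1.64e-05), the fall in ST2KO was 1.19-fold against ST2-low (adjusted p = 0.000147) and 1.5-fold against ST2-high (log2 fold change -0.58 ± 0.05 SE, adjusted p = 8.07e-11). Of the per-length sum of the NFAT genes, Nfatc3 made up 42.6% ± 0.43 in ST2-low, 47.1% ± 1.67 in ST2-high and 36.3% ± 0.65 in ST2KO, while Nfatc1 made up 41.7% ± 0.29, 36.3% ± 1.27 and 44.4% ± 0.31. Nfatc4 had 0 counts in every library, where 1 count in the shallowest library (ST2KO replicate 3) is 0.0818 CPM.

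**Figure D3:**
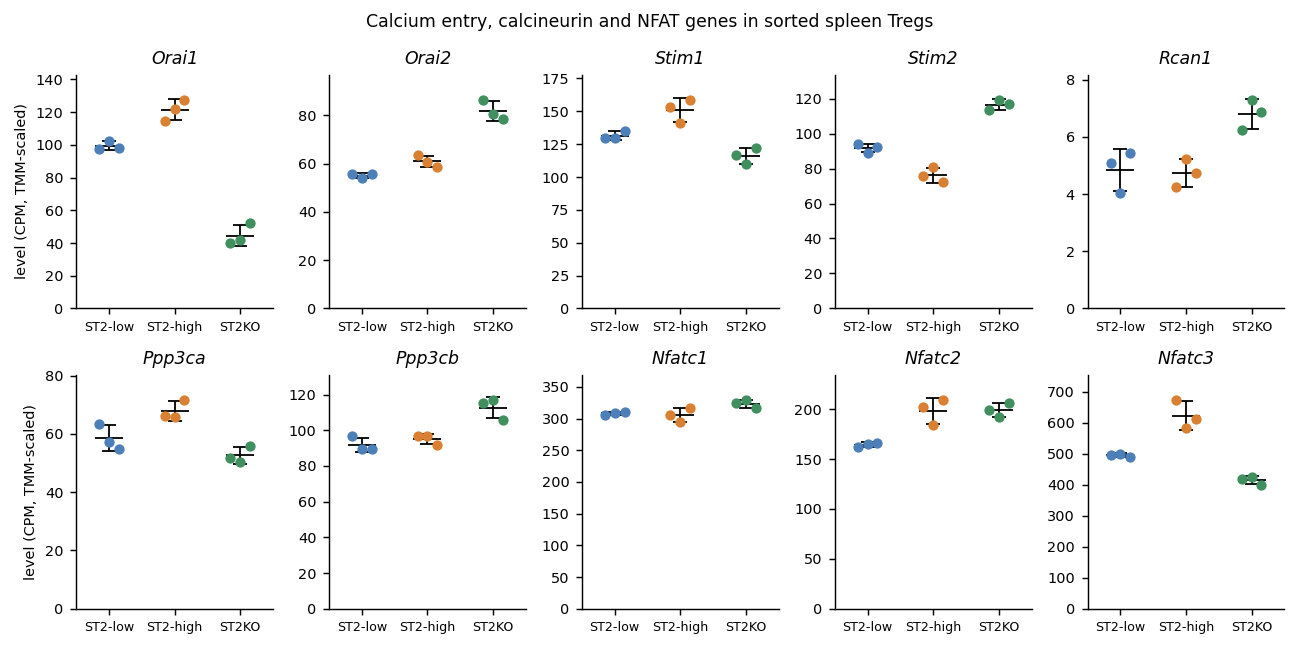
Each panel shows 1 gene, with the level in CPM (y axis, from 0) of every sample by group (x axis) and the mean ± SD as black bars. Orai1, Stim1, Ppp3ca and Nfatc3 are lowest in ST2KO, Orai2, Stim2, Rcan1 and Ppp3cb are highest there, and Nfatc1 lies between 294.2 and 329.4 CPM throughout.

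Ratios of counts within a sample do not depend on scaling or depth, and they separate the groups too. The Orai2 to Orai1 ratio was 0.57, 0.526 and 0.567 in ST2-low, 0.553, 0.496 and 0.46 in ST2-high, and 2.17, 1.94 and 1.51 in ST2KO. The wild-type groups overlapped, and the ratio in ST2KO was 3.34-fold that of ST2-low and 3.69-fold that of ST2-high (log2 differences of 1.74 ± 0.16 and 1.89 ± 0.17 SE). The Stim2 to Stim1 ratio was 0.698 ± 0.023 in ST2-low, 0.507 ± 0.059 in ST2-high and 1.01 ± 0.069 in ST2KO, with no overlap between groups. The Ppp3cb to Ppp3ca ratio was 1.57 ± 0.051, 1.41 ± 0.109 and 2.15 ± 0.224 in the same order, again with no overlap. The Nfatc2 to Nfatc1 ratio was 0.534 ± 0.004 in ST2-low, below 0.649 ± 0.021 in ST2-high and 0.615 ± 0.034 in ST2KO, which overlapped. Counts also depend on transcript length, so a count ratio of 1 does not mark equal abundance. Per length, the mean Orai2 to Orai1 ratio was 0.209 in ST2-low, 0.190 in ST2-high and 0.707 in ST2KO. The mean Stim2 to Stim1 ratio per length was 1.41, 1.025 and 2.03 in the same order. These ratios are descriptions of the same counts as above and no test was run on them.

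**Figure D4:**
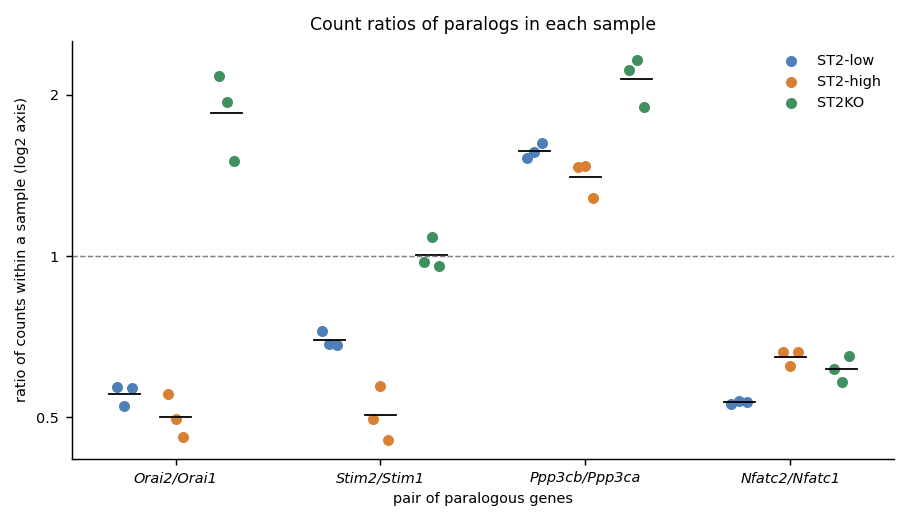
Ratio of counts within a sample for 4 pairs of related genes (y axis, log2 scale; coloured points are samples, black lines the mean of log2 ratios). ST2KO lies above both wild-type groups for Orai2/Orai1, Stim2/Stim1 and Ppp3cb/Ppp3ca, and Orai2 counts exceed Orai1 counts only there among the 9 samples.

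On the per-length scale the levels of the 10 genes fell into tiers. In ST2-low, Orai1 (43.3 ± 1.17 CPM per kb), Nfatc3 (42.2 ± 0.50) and Nfatc1 (41.2 ± 0.27) were at the top, and Orai1 and Nfatc3 did not differ beyond their SDs. All other neighbours in the order below were further apart than their SDs. Stim2 (17.9 ± 0.48), Nfatc2 (15.5 ± 0.21), Stim1 (12.7 ± 0.31), Ppp3cb (10.4 ± 0.46) and Orai2 (9.06 ± 0.17) formed a middle tier. Ppp3ca (5.87 ± 0.43) and Rcan1 (1.57 ± 0.24) were lowest. In ST2-high, Nfatc3 (53.1 ± 3.96) and Orai1 (53.0 ± 2.82) did not differ beyond their SDs and were above Nfatc1 (40.9 ± 1.49). In ST2KO, Orai1 at 19.4 ± 2.85 CPM per kb had moved beside Nfatc2 (18.8 ± 0.66) and Stim2 (22.7 ± 0.57), below Nfatc1 (43.3 ± 0.90) and Nfatc3 (35.4 ± 1.14). These levels take every annotated exon as transcribed, and the authors' gene models are unknown here.

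Patterns over the 9 samples were compared by the root mean square difference of log2 CPM, each gene centred on its own mean. Among the 10 genes the closest pair was Stim1 and Ppp3ca (0.07) and the most distant was Orai1 and Rcan1 (0.886). For the 3 genes with the widest range of group means, the nearest of 7571 other genes with at least 10 CPM were sought. Nearest to Orai1 were the autophagy receptor gene Sqstm1 (0.102), the kinase gene Pim3 (0.103) and the inositol polyphosphate kinase gene Ipmk (0.105). Sqstm1 was at 348 ± 5.33 (ST2-low), 408.5 ± 10.7 (ST2-high) and 147.9 ± 4.5 CPM (ST2KO). Nearest to Stim2 were the acetyltransferase gene Kat2a (0.033), Smc6 (0.044), which encodes a subunit of a chromosome maintenance complex, and Pdcd4 (0.046), which encodes an inhibitor of translation initiation. Nearest to Nfatc3 were the adiponectin receptor gene Adipor2 (0.044), the mitochondrial isoleucyl-tRNA synthetase gene Iars2 (0.054) and Lpxn (0.055), which encodes the adaptor leupaxin. Likeness of this kind is a description over 3 groups.

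The other genes of the pathway were taken in 10 lists, of which 81 genes passed the filter. Of these, 20 rose and 13 fell in ST2-high against ST2-low, 26 rose and 33 fell in ST2KO against ST2-low, and 24 rose and 35 fell in ST2KO against ST2-high. In either direction 40.7%, 72.8% and 72.8% of the 81 were called, beside 26.1%, 62.3% and 64.5% of all genes. The share over all genes depends on their level. With the filter of 5 CPM in 3 samples, 3122, 6538 and 6705 of 9466 genes were called in the same order. The part of expression level in the difference from the 81 genes was not tested. For the counts of each list in ST2KO against ST2-low given below, the shares of all genes are 33.0% higher and 29.3% lower. The lists were not tested as sets.

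Upstream of STIM, 7 genes of ER calcium release were tested. In ST2KO against ST2-low, 2 rose and 3 fell (median log2 fold change 0.01, beside 0.05 over all genes). Itpkb, a kinase that removes the calcium-releasing messenger inositol trisphosphate by phosphorylating it, fell 1.93-fold, from 1498 ± 21.3 to 777.9 ± 24.4 CPM (adjusted p = 1.65e-15). Its relative Itpkc was 1.47-fold higher in ST2-high than ST2-low (adjusted p = 2.02e-05) and 1.39-fold lower in ST2KO than ST2-low (adjusted p = 9.94e-05). Itpr2, an inositol trisphosphate receptor, rose 1.23-fold in ST2KO (adjusted p = 6.38e-05). Plcg2, the phospholipase of B and myeloid cells, fell 1.675-fold (adjusted p = 9.72e-05).

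Of 5 tested partners of store-operated entry, 3 rose and 2 fell in ST2KO against ST2-low (median log2 fold change 0.28). Tmem66, now named Saraf, which turns STIM off after refilling, fell 1.84-fold, from 557.4 ± 31.2 to 303.2 ± 19.0 CPM (adjusted p = 2.79e-14). Efcab4b, now named Cracr2a, a cytosolic calcium-binding protein that stabilises the STIM and ORAI complex, rose 1.51-fold, from 8.72 ± 0.67 to 13.2 ± 2.35 CPM (adjusted p = 0.000357). Asph, whose locus also encodes the ER calcium-binding protein junctate, fell 1.83-fold from 3.16 ± 0.59 CPM (adjusted p = 0.00316). In ST2-high against ST2-low, 1 of the 5 rose (Orai3) and 1 fell (Tmem66).

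Calcium pumps and exchangers, 10 tested, had 4 rises and 1 fall in ST2-high against ST2-low and 1 rise and 6 falls in ST2KO against ST2-high (median log2 fold changes 0.12 and -0.23, beside -0.002 and 0.02 over all genes). Of all genes, 15.3% rose and 10.8% fell between the wild-type groups, and 31.9% rose and 32.6% fell in ST2KO against ST2-high. Atp2b4, a plasma membrane pump, was at 118.7 ± 6.5 (ST2-low), 233.7 ± 16.3 (ST2-high) and 115.9 ± 8.57 CPM (ST2KO), 1.97-fold higher in ST2-high than ST2-low (adjusted p = 1.15e-13). Atp2b1, the other pump of this kind at a high level, was 1.35-fold lower in ST2KO than ST2-high (adjusted p = 1.79e-08). Atp2a3, an ER pump of blood cells, was 1.26-fold higher in ST2-high than ST2-low (adjusted p = 1.07e-05). The exchanger gene Slc8a1 was at 0.677 ± 0.289 CPM in ST2KO and 3.39 ± 1.24 CPM in ST2-low (4.91-fold lower, adjusted p = 4.34e-07).

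Of 9 other channel genes, 5 rose and 2 fell in ST2KO against ST2-low (median log2 fold change 0.15). Kcna3, the potassium channel that keeps the membrane potential that drives calcium entry, was at 46.3 ± 2.22 (ST2-low), 63.4 ± 7.33 (ST2-high) and 105.7 ± 3.74 CPM (ST2KO), 2.28-fold above ST2-low (adjusted p = 3.61e-15). The ATP-gated channel gene P2rx7 was 2.11-fold higher in ST2KO than ST2-low (adjusted p = 6.46e-16) and 1.24-fold lower in ST2-high than ST2-low (adjusted p = 0.00021). The cation channel gene Trpv2 was higher than ST2-low in both ST2-high (1.57-fold, adjusted p = 2.4e-07) and ST2KO (1.84-fold, adjusted p = 1.01e-10). Ryr2, an ER release channel best known from heart, was lower than ST2-low in both, by 1.97-fold (adjusted p = 1.97e-06) and 2.48-fold (adjusted p = 3.03e-09).

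Around calcineurin, the calmodulin gene Calm2 was 1.83-fold lower in ST2KO than ST2-low (adjusted p = 1.88e-13), while Calm3 was 1.17-fold higher (adjusted p = 0.00323). Of the 5 genes of that list, 2 rose and 3 fell (median log2 fold change -0.19). Of 7 inhibitors, scaffolds and immunophilins, 3 rose and 2 fell (median 0.21). Chp1, a calcineurin homologue that inhibits the phosphatase, was 1.30-fold higher in ST2-high and 1.62-fold lower in ST2KO than ST2-low (adjusted p = 1.82e-06 and 3.15e-12). Akap5, an anchor for calcineurin, was near 0 in wild-type Tregs, at 0.697 ± 0.305 CPM in ST2-low and 0.49 ± 0.378 CPM in ST2-high, and at 4.17 ± 0.894 CPM in ST2KO (adjusted p = 1.35e-07 against ST2-low). Fkbp1a and Ppia, which bind the drugs tacrolimus and ciclosporin, were 1.17-fold higher and 1.15-fold lower in ST2KO than ST2-low (adjusted p = 0.00142 and 0.00523).

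Of 10 tested kinases that phosphorylate NFAT, 6 fell and 1 rose in ST2KO against ST2-low, where 29.3% of all genes fell and 33.0% rose. The median log2 fold change was -0.35 beside 0.05 over all genes. Against ST2-high, 5 fell and 1 rose (median -0.23), where 32.6% of all genes fell and 31.9% rose. The 1 that rose in both was Mapk14, the kinase p38 alpha (1.26-fold over ST2-low, adjusted p = 3.39e-06). In ST2-high against ST2-low, 2 fell and 8 did not pass. Csnk1e fell 2.66-fold, from 29.8 ± 1.68 to 11 ± 0.942 CPM (adjusted p = 6.66e-14), and Csnk1d 1.57-fold (adjusted p = 1.67e-12), both casein kinases. Dyrk1a, which primes NFAT for further phosphorylation, fell 1.39-fold (adjusted p = 1.31e-09), and Mapk8, the kinase JNK1, 1.63-fold (adjusted p = 4.05e-11). Nfat5, the NFAT relative that does not need calcineurin, was at 345.2 ± 13.8, 302 ± 25.5 and 361.5 ± 12.1 CPM (ST2-low, ST2-high, ST2KO), lower in ST2-high than ST2-low (adjusted p = 0.00993), where the groups overlapped. Nfatc2ip, which encodes an NFATC2-binding protein, passed in none of the 3 comparisons (adjusted p = 0.356, 0.111 and 0.691).

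Of 16 tested genes known as NFAT targets in T cells, 9 fell and 3 rose in ST2KO against ST2-low (median log2 fold change -0.43), and 10 fell and 3 rose against ST2-high (median -0.65, beside 0.02 over all genes). Of all genes, 29.3% fell and 33.0% rose in the first comparison, and 32.6% fell and 31.9% rose in the second. In ST2-high against ST2-low, 5 rose and 3 fell (median 0.04). Nr4a3 and Nr4a1, nuclear receptors induced by antigen, were 5.64-fold and 3.31-fold lower in ST2KO than ST2-low (adjusted p = 4.83e-25 and 8.32e-21). Tnfrsf9, the costimulatory receptor 4-1BB, was at 206.3 ± 2.72 (ST2-low), 341.8 ± 27.4 (ST2-high) and 83.8 ± 6.47 CPM (ST2KO). Irf4, a factor of effector Tregs, was 1.91-fold higher in ST2-high than ST2-low (adjusted p = 3.06e-14) and did not differ past the threshold between ST2KO and ST2-low (adjusted p = 0.739). The 3 genes that rose against ST2-low in ST2KO were Ifng (1.8-fold), Cd40lg (2-fold) and Egr2 (1.4-fold). Most of these genes answer to other signals as well, and parts of the list were known from these data to be lower in ST2KO.

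In the list for the calmodulin kinase branch, which runs beside calcineurin, 5 of 10 genes rose and 3 fell in ST2KO against ST2-low (median log2 fold change 0.07). Besides kinase genes the list holds Creb1 and Crtc3, both among the rises, and Crtc2, among the falls. Creb1, the nuclear end point of that branch, was at 97.9 ± 2.87 (ST2-low), 128.5 ± 3.59 (ST2-high) and 204.6 ± 3.43 CPM (ST2KO), 2.09-fold above ST2-low in ST2KO (adjusted p = 1.81e-17). Camkk1, a kinase that activates calmodulin kinases, rose 1.48-fold (adjusted p = 0.00123) and Camk2g 1.40-fold (adjusted p = 3.11e-06), while Camk2d fell 1.115-fold (adjusted p = 0.00809).

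**Figure D5:**
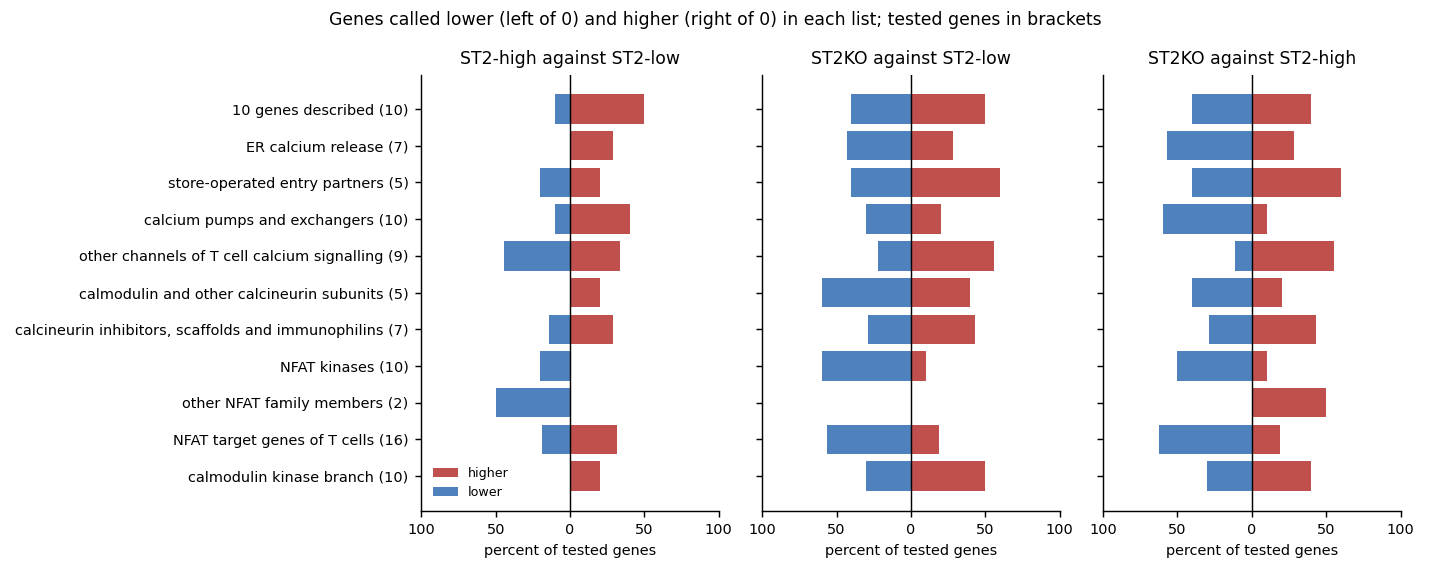
Percent of tested genes called lower (left of 0) and higher (right of 0) for the 10 described genes and each pathway list, in 3 comparisons; the number tested is in brackets. NFAT kinases (6 of 10) and NFAT targets (9 of 16) extend furthest to the left beside calmodulin and calcineurin subunits (3 of 5) in ST2KO against ST2-low.

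Overlapping genes on the opposite strand could share counts where strand was ignored, and the strand setting is not stated. Of such genes with a row, Esrp2 (beside Nfatc3) had at most 2 counts in a library, and 1810062O18Rik (beside Ppp3cb) was at 0.569 ± 0.126, 0.578 ± 0.241 and 0.598 ± 0.093 CPM (ST2-low, ST2-high, ST2KO). Both are far below the genes they overlap.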

How the data were processed

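RNA sequencing of 9 samples of spleen Tregs was used, 3 per group by the genotype labels. The deposited files hold raw counts per gene symbol, judged from the values and the file headers. The aligner, build, gene models, counter and strand setting are not stated in the sources used here. Of 23420 rows, 27 whose symbol had become a calendar date were left out (0.182% to 0.206% of counts). The ribosomal RNA row Rn45s, 12.1% to 16.9% of counts, was kept.

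The 10 genes and all lists were chosen with earlier results of these data known. Counts were filtered with filterByExpr (minimum count 10, minimum total 15), leaving 12219 genes, scaled with TMM and tested with edgeR 4.0.16 (R 4.3.3, limma 3.58.1) by quasi-likelihood over all 9 samples, 1 coefficient per group, with p-values adjusted by Benjamini and Hochberg over all tested genes. SEs are the log2 fold change over the square root of F. The procedure was tested on simulated data. Exon lengths come from GENCODE M21 and promoter windows from RefSeq GRCm38.p6, both apart from the authors' unstated models. Pathway genes named are up to 4 per list with the smallest adjusted p in any comparison and a mean of at least 1 CPM; genes of similar pattern are the 3 nearest to each of the 3 genes with the widest range. Of the pathway genes this rule names, 1 is not reported here. Ifng, Cd40lg, Egr2, Mapk14, Nfatc4, Crtc2 and Crtc3, and the markers named singly, were named after their values were seen. Each replicate differed from the others of its group beyond sampling noise (chi-square per gene 4.61 to 21.2, with Rn45s included). Alternatives were DESeq2 1.42.0 (its size factors and its Wald test), upper-quartile scaling, limma-voom, no filter, 5 CPM in 3 samples, the 6 samples compared only, a replicate block, Rn45s left out, a minimum fold of 1.5 (glmTreat) and each replicate left out.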

Additional observations from a re-analysis of the deposited data

How the results depend on the processing

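Of 480 recomputed values of the 10 genes (16 alternatives for each gene and comparison), 435 kept direction and side of the threshold, 33 lost a call, 3 gained one and 9 changed sign, all 9 in differences near 0 that no setting called. Nfatc2 in ST2KO against ST2-high (main log2 fold change 0.003) became -0.010 with DESeq2's size factors, -0.010 with its test, -0.001 with only the 6 samples compared, and ran from -0.051 to 0.028 with 1 replicate left out (below 0 without ST2-high replicate 1, ST2-high replicate 2 or ST2KO replicate 3). In ST2-high against ST2-low, Nfatc1 (-0.013) ran from -0.039 to 0.014 (above 0 without ST2-high replicate 2), and Rcan1 (-0.045) from -0.163 to 0.046 (above 0 without ST2-low replicate 3 or ST2-high replicate 1). Requiring a fold above 1.5 accounts for most losses by construction: it left 347 of 3189 genes in ST2-high against ST2-low, 2111 of 7607 in ST2KO against ST2-low and 2378 of 7876 in ST2KO against ST2-high, and of the 10 genes 0 higher and 0 lower, 0 higher and 1 lower, and 0 higher and 1 lower. Upper-quartile scaling left 2 of the 10 genes lower in ST2KO against ST2-low instead of 4. The 2 lost calls were Stim1 (log2 fold change from -0.181 to -0.111) and Ppp3ca (from -0.159 to -0.089). The median over all genes moved from 0.051 to 0.121 under the same scaling. The cause of the losses was not tested further. With DESeq2's test, 5 NFAT targets instead of 3 were lower in ST2-high against ST2-low. In the list for the calmodulin kinase branch, 1 gene instead of 0 was lower there, and 2 instead of 4 were higher in ST2KO against ST2-high. The causes were not tested. The filter of 5 CPM turned the balance over all genes in ST2-high against ST2-low from 1872 higher and 1317 lower to 1456 and 1666. Same-numbered samples did not deviate together over all tested genes (correlations of their deviations from -0.0626 to 0.0984). Such correlations cannot show whether same-numbered samples came from the same animal or were handled together, which is not stated. The replicate block called 3210, 7622 and 7885 genes and changed no call among the 10 genes. Rcan1 rests on 72 to 288 counts per library, the fewest of the 10 genes.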
